A study of Homo sapiens with 36 samples.

Results

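Long RNAs that carry a LINC name (LINC followed by digits) were followed across polysome fractions of MDA-MB-231 cells, an established line from a human breast cancer that lacks hormone receptors and HER2. The name is a placeholder symbol for RNA genes that lay between coding genes and had no known protein when they were named. The set was every such symbol with a mean of at least 1 CPM (counts scaled to 1e6 counts in the library) over the 12 total RNA libraries. It held 78 of the 880 LINC-named symbols in the count tables, of which 573 had any count, and 78 of the 12397 symbols of all kinds that passed the same bound. LINC00869 (1.02 CPM), LINC01111 (1.02 CPM) and LINC01270 (1.01 CPM) lay just inside the bound, and LINC00852 (0.993 CPM), LINC00240 (0.957 CPM) and LINC00957 (0.956 CPM) just outside it. The members were chosen by their total RNA level in these libraries, so that level is given as a description. The bound was used for every gene, so that all 78 members were tested in each comparison.

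Each line carried a CRISPR interference (CRISPRi) construct, which represses a chosen locus, and an overexpression (OE) construct. UAU cells had CRISPRi against eGFP and OE of tRNAIleUAU, GAUi cells had CRISPRi against Ile GAU and the Control OE construct, and isoswitch cells had CRISPRi against Ile GAU with OE of tRNAIleUAU. Control cells had CRISPRi against eGFP and the Control OE construct. All 4 lines thus carried both kinds of construct, and all were treated with 100 ug/mL cycloheximide, which arrests ribosomes on the RNA, for 5 minutes. Each line gave a high fraction (labelled >2 polys), a low fraction that held the monosome and the first polysome peak, and total RNA, each as replicates A, B and C, which makes 36 libraries. The study examined which transcripts are highly translated when the 2 isoleucine tRNAs are changed. The labels do not say whether a line is 1 clone or whether A, B and C came from different cultures. The p-values therefore rest on the spread among these libraries, which may be technical. RNA lighter than the monosome was not analysed here as a fraction of its own.

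Ribosomes that translate an mRNA together sediment as polysomes, and the more of them an RNA carries, the deeper it runs in a gradient. An RNA without a long reading frame usually carries few or no ribosomes, although short reading frames in long non-coding RNAs can hold a ribosome and some encode microproteins. Protein complexes of like size sediment with the monosome, so presence in a light fraction does not by itself show translation.

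Library totals ran from 5192464 to 8974001 counts. The members took 0.0597% to 0.105% of the counts in high libraries, 0.304% to 0.342% in low libraries and 0.142% to 0.168% in total RNA libraries. Of 5 markers listed for the cell line, VIM (3351 CPM in total RNA), AXL (494 CPM), CD44 (340 CPM) and ZEB1 (137 CPM) were present and SPARC was at 0.51 CPM. Of 5 luminal epithelial markers, CDH1 (0.06 CPM) and ESR1 (0.05 CPM) were near 0, whereas KRT19 (179 CPM), GATA3 (17.5 CPM) and EPCAM (14.9 CPM) were present. Leukocyte markers summed to at most 1.56 CPM, fibroblast markers to at most 4.79 CPM and endothelial markers to at most 5.17 CPM. COL1A1 (2.81 CPM) of the fibroblast list and PECAM1 (3.25 CPM) of the endothelial list were the highest of their lists. Some libraries stood apart from their replicates. Control low B differed from control low A and C with chi-square values per degree of freedom at 15.8 and 13.7, against 2.88 between A and C, and GAUi total A from GAUi total B and C with 23.8 and 12.8, against 8.53 between B and C. Among high libraries, isoswitch A had the lowest level of 7 of the 8 most abundant members and UAU A the highest of 5. Some of the counts that rest on these libraries are also given without them, and the others as ranges over leaving out each library.

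All 78 symbols matched a gene of the RefSeq annotation of GRCh38.p14, 54 under the same symbol and 24 under a newer one. The matched RefSeq gene is protein coding for 8 of the 78, and for 2 of these the match is uncertain (LINC01279 and LINC00341). The newer names are CYTOR for LINC00152, a cytoskeleton-regulating RNA raised in many cancers; NORAD for LINC00657, which binds Pumilio proteins; MANCR for LINC00704, a mitosis-associated RNA of triple-negative breast cancer; and CHASERR for LINC01578, which represses its neighbour CHD2. LINC00888 is SNHG33, a host of the snoRNA genes SNORA63D and SNORA63E, and LINC00669 is MIR924HG, a microRNA host. MTLN (LINC00116), SMIM30 (LINC00998), SMIM26 (LINC00493), NBDY (LINC01420) and BRD3OS (LINC00094) encode or are annotated to encode microproteins. LINC01279 and LINC00341 are listed as older names of CCDC80 and SYNE3, and LINC01125 as C2orf92. The count tables list CCDC80 (mean 128 CPM in total RNA) and SYNE3 (0.257 CPM) beside the LINC symbols, so these LINC rows are separate features and the coding status does not carry over to them. The other newer names are SLC12A2-DT (LINC01184), DUBR (LINC00883), PRANCR (LINC01481), ZNF407-AS1 (LINC00909), MINCR (LINC01604), ERCC6L2-AS1 (LINC00476), ATP2B1-AS1 (LINC00936), PRECSIT (LINC00346), MALINC1 (LINC01024) and ICMT-DT (LINC00337). In RefSeq, 43 members overlap another gene and 13 overlap a coding gene. The strand setting of the counting is not given in the sources used here, so reads of such a member and of its partner cannot be told apart. This holds for SMIM30, which overlaps the coding gene LOC107986837, and for LINC01089, which overlaps SETD1B.

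The start regions below belong to the 3 RNAs called in at least 3 of the 9 comparisons of a line with control, and show what lies at the start of the RNAs whose level moved most often. They are RefSeq windows of 300 bases, from 250 before to 50 after the gene start, on the minus strand of GRCh38.p14: chr12:113773634-113773933 for LINC01234, chr10:4678021-4678320 for LINC00704 (MANCR) and chr7:113118505-113118804 for LINC00998 (SMIM30). Capitals mark 4 motifs, searched on both strands and so also shown as their reverse complement: the CCAAT box, the AP-1 element written TGANTCA, the TATA box as TATAAA, and the GC box as GGGCGG.
LINC01234: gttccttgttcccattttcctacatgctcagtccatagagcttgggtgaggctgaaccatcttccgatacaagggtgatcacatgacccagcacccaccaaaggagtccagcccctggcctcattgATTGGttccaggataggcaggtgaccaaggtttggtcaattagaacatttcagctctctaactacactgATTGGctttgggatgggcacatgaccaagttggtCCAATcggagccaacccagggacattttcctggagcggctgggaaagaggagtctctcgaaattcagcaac
LINC00704: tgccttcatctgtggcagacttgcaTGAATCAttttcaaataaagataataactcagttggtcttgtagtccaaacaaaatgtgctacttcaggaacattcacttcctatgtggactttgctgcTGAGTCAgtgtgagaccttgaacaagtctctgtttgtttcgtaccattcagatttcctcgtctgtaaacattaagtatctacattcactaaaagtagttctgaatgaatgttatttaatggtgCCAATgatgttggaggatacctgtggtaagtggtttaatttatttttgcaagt
LINC00998: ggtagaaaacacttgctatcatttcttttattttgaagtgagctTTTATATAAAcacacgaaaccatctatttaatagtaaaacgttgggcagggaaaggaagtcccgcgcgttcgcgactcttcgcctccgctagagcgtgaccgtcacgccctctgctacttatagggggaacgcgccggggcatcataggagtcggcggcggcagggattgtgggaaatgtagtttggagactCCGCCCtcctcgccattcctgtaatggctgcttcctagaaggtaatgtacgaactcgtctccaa

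The LINC01234 window held 3 copies of CCAAT and 4 CG pairs. The MANCR window held 2 copies of TGANTCA, whose middle base is free, and 1 CCAAT, with 2 CG pairs. The SMIM30 window held GGGCGG and 2 overlapping matches to TATAAA, one on each strand, with 22 CG pairs. Among the 35116 windows of the table, 34.6% held CCAAT, 7.71% TGANTCA, 11.5% TATAAA and 45.0% GGGCGG. Of the 74 windows of the 64 members with an entry, 33 held CCAAT, 6 TGANTCA, 8 TATAAA and 35 GGGCGG. The median number of CG pairs was 18 in member windows and 14 in all windows.

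Most LINC RNAs took a smaller share of the high fraction than of the low fraction. High libraries were compared with low libraries of the same line on raw counts, with the edgeR quasi-likelihood test and Benjamini-Hochberg adjustment over the 12397 genes, which gives every adjusted p below. CPM is a share of a fraction's library, so a lower value in the high fraction means a smaller share of that fraction's RNA and not a number of molecules per cell. As in any bulk sample, fewer cells with an RNA and less of it per cell cannot be told apart. Of the 78 members, 66 were called lower in the high fraction in UAU cells, 64 in GAUi cells, 66 in isoswitch cells and 65 in control cells, where 34.2%, 33.5%, 32.8% and 32.6% of all genes were called lower. Called higher were 3 in UAU, 2 in GAUi, 1 in isoswitch and 1 in control cells, where 32.1%, 33.2%, 35% and 33.8% of all genes were. The median log2 fold change of the members was -1.55 in UAU, -1.42 in GAUi, -1.83 in isoswitch and -1.78 in control cells. In either direction, 66.3%, 66.8%, 67.8% and 66.4% of all genes were called. Over all genes the median was -0.05, -0.03, 0.01 and 0.02.

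The pattern was shared by the lines. It was called in all 4 lines for 62 members, against 23.9% of all genes. In 53 members, every one of the 12 high libraries lay below every one of the 12 low libraries, which held for 19.4% of all genes, and the opposite held for 0 members and 17.3% of all genes. Total RNA lay between the high and the low mean for 66 members in UAU, 66 in GAUi, 65 in isoswitch and 65 in control cells. For all genes this count is not given here, so it is not read as a trait of the members. Summed over the members, control cells had 844 CPM in the high fraction and 3179 CPM in the low fraction, with 1513 CPM in total RNA. Without control low B, 63 members were called lower in control cells and 1 higher. Without UAU high A, 64 were lower in UAU cells, and without isoswitch high A, 63 were lower in isoswitch cells.

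**Figure D1:**
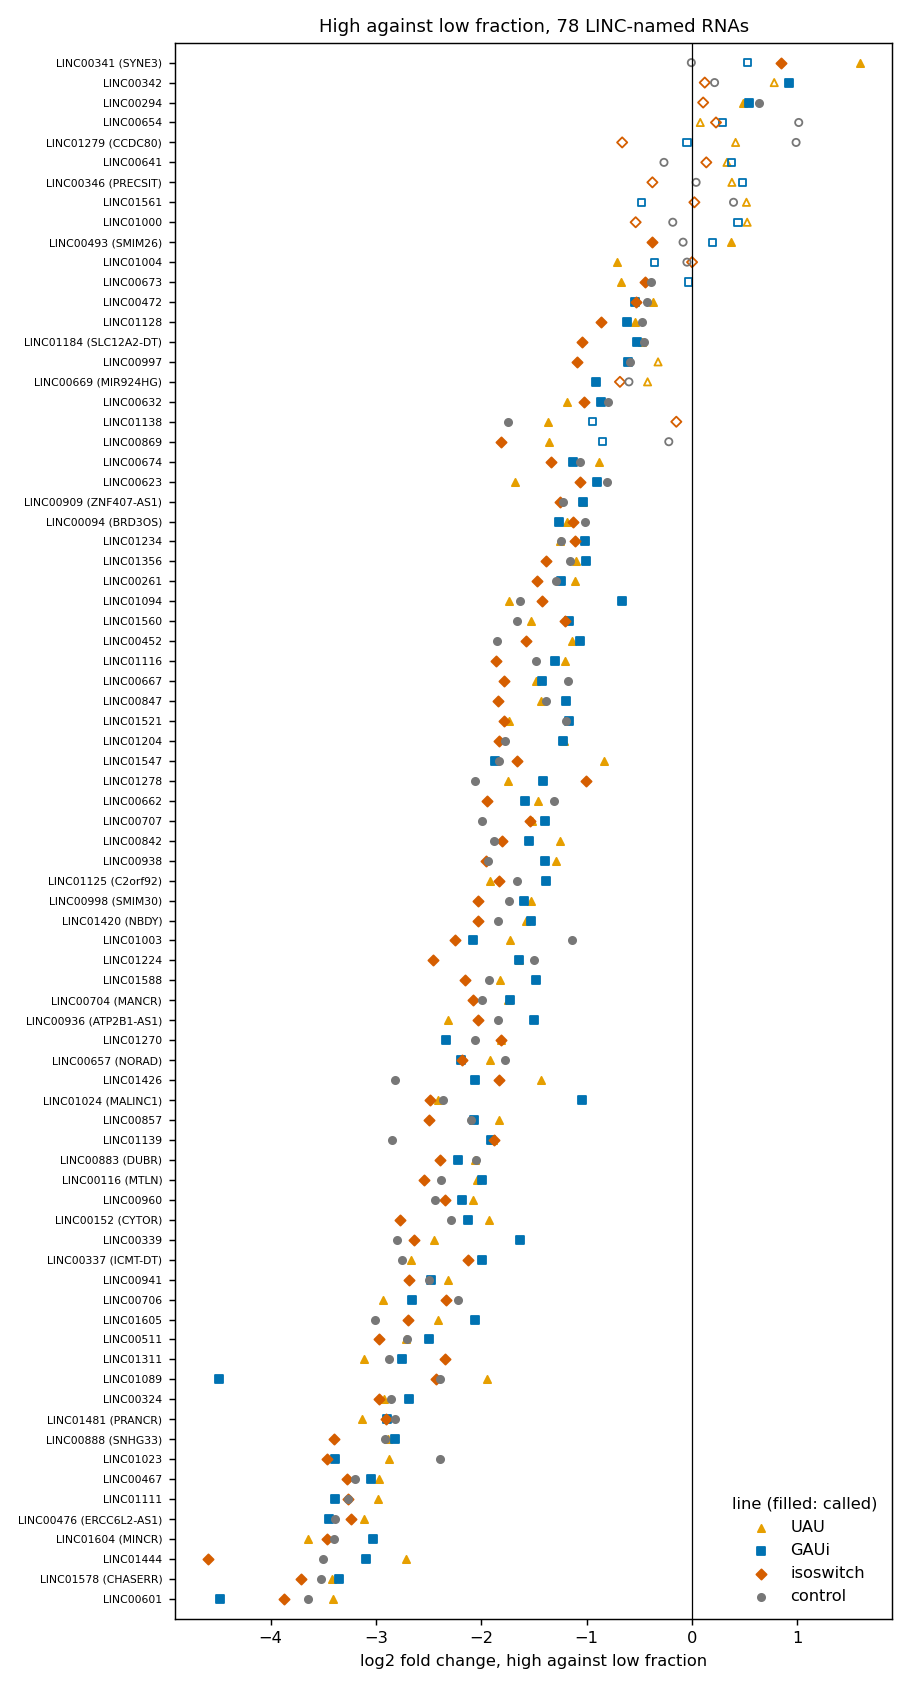
Log2 fold change of the high against the low fraction (x axis) for each of the 78 LINC-named RNAs (rows), in UAU, GAUi, isoswitch and control cells. Filled symbols passed an adjusted p of 0.05; nearly all filled symbols lie left of 0, and 62 RNAs were called lower in all 4 lines.

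CYTOR was the most abundant member, at a mean of 422 CPM over the total RNA libraries. Across 12 libraries each, it ran from 110.4 to 274 CPM in the high fraction (median 210), from 882 to 1185 CPM in the low fraction (median 993) and from 340 to 503 CPM in total RNA (median 440). The groups of high and low libraries did not overlap. In control cells its log2 fold change of high against low was -2.28 (SE 0.13, adjusted p = 1.0e-15). NORAD, a cytoplasmic RNA, ranged from 95.5 to 141 CPM in the high fraction and from 363 to 581 CPM in the low fraction, and its lowest low library was control B. MANCR ranged from 48.1 to 81.0 CPM in the high and from 201 to 295 CPM in the low fraction. Their log2 fold changes in control cells were -1.78 for NORAD (SE 0.11, adjusted p = 6.7e-15) and -1.99 for MANCR (SE 0.08, adjusted p = 4.3e-19). LINC00674 was less skewed, with 42.4 to 60.1 CPM in the high fraction and 100.3 to 120 CPM in the low fraction, and a log2 fold change of -1.07 in control cells (SE 0.09, adjusted p = 7.8e-12).

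**Figure D2:**
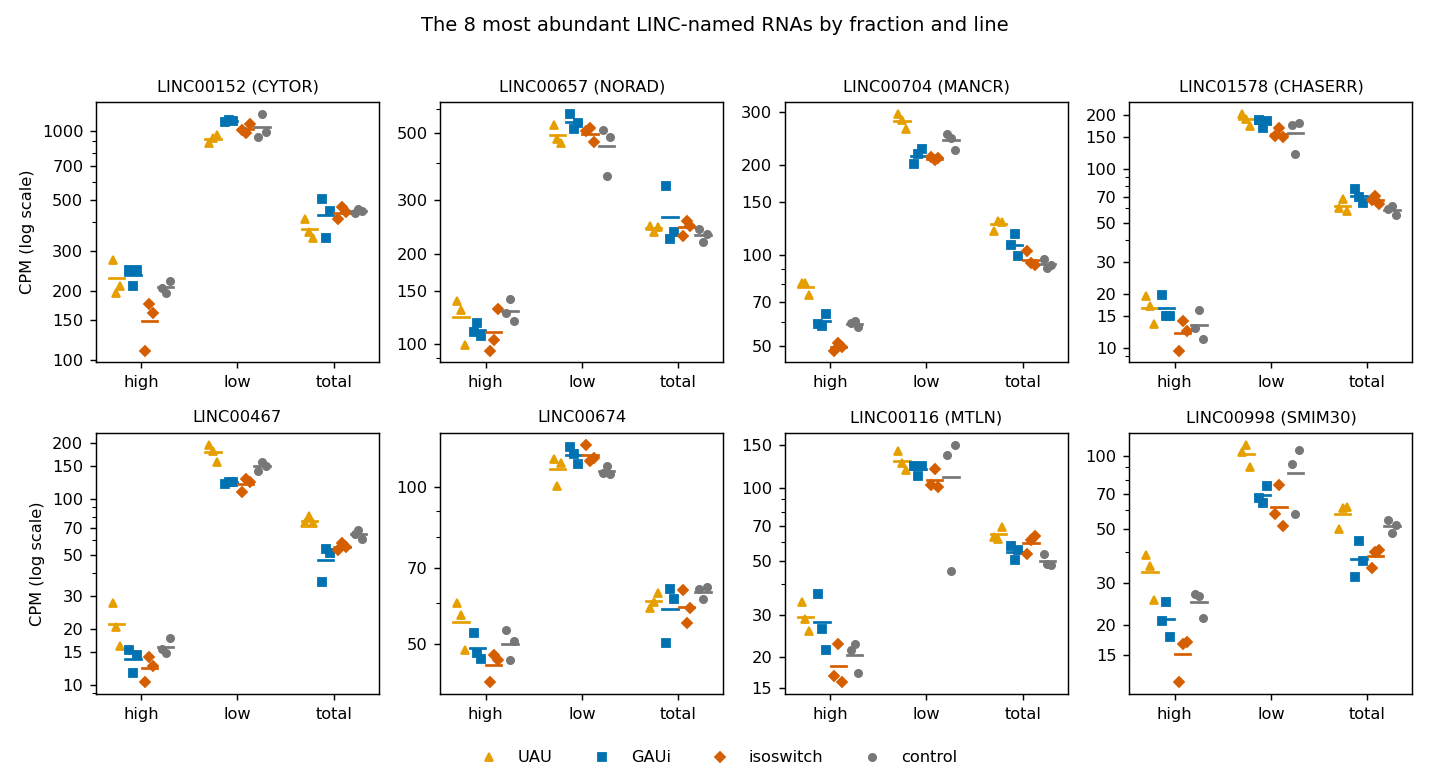
CPM (y axis, log scale) of the 8 members with the highest mean in total RNA, by fraction (x axis) and line. Points are single libraries and bars the mean of 3. In CYTOR, NORAD, MANCR, CHASERR, LINC00467, LINC00674, MTLN and SMIM30 all high libraries lie below all low ones, with the mean of total RNA between them.

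CHASERR and LINC00467 had the strongest skew among the abundant members. CHASERR had 12.9, 16.2 and 11.1 CPM in the high libraries A, B and C of control cells, against 176, 121 and 181 CPM in the low libraries. The log2 fold change was -3.52 (SE 0.15, adjusted p = 3.8e-19). LINC00467, reported to encode a micropeptide in colorectal cancer, had 15.5, 14.9 and 17.8 CPM in the high libraries and 140.5, 158 and 150 CPM in the low libraries of control cells. Its log2 fold change was -3.20 (SE 0.14, adjusted p = 9.9e-19). In control cells 58 members were below -1, 29 below -2 and 8 below -3.

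LINC00601 had the lowest value in control cells. It had 0.669, 1.50 and 0.348 CPM in the high libraries, which are 6, 11 and 2 counts, against 9.42, 12.3 and 11.8 CPM in the low libraries (log2 fold change -3.65, SE 0.33, adjusted p = 3.8e-11). The others below -3 were CHASERR, LINC01444 (-3.50), MINCR (LINC01604, a MYC-induced RNA, -3.40), ERCC6L2-AS1 (LINC00476, -3.39), LINC01111 (-3.26), LINC00467 and LINC01605 (-3.01). LINC01444 had 7, 0 and 3 counts in the high libraries of control cells, so its level there rests on few reads.

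Exceptions were few. LINC00294 was the 1 member called higher in the high fraction of control cells, with 9.69, 9.14 and 8.36 CPM in the high and 6.97, 6.07 and 4.93 CPM in the low libraries. The libraries did not overlap, and the log2 fold change was 0.64 (SE 0.21, adjusted p = 0.0081). The call did not hold without control low C (adjusted p = 0.0571). It was also called higher in UAU cells (0.49) and GAUi cells (0.54), whereas the value in isoswitch cells was 0.11 (adjusted p = 0.668). LINC00341 was called higher in UAU cells (1.60, SE 0.38, adjusted p = 0.00051) and isoswitch cells (0.84, SE 0.36, adjusted p = 0.038), with 0.53 in GAUi and -0.00 in control cells. LINC00342 was called higher in GAUi cells (0.92, adjusted p = 0.028). These 3 were named after their values were seen, as were the 6 members in which no line passed: LINC00641, LINC00654, LINC01000, LINC01279, LINC01561 and PRECSIT (LINC00346).

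The genes now known to encode microproteins were mostly skewed to the low fraction as well. MTLN encodes mitoregulin of the inner mitochondrial membrane, SMIM30 a small membrane protein and NBDY a binder of the mRNA decapping complex. MTLN had 21.4, 22.8 and 17.2 CPM in the high libraries of control cells, against 137, 45.6 and 150 CPM in the low libraries. The low library B stands apart, yet no high library reached it, and the log2 fold change was -2.38 (SE 0.24, adjusted p = 2.5e-10). In control cells SMIM30 had a log2 fold change of -1.73 (SE 0.17, adjusted p = 1.5e-10), NBDY of -1.84 (SE 0.14, adjusted p = 2.8e-13) and BRD3OS of -1.01 (SE 0.12, adjusted p = 2.0e-08).

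SMIM26, which encodes a mitochondrial microprotein, was the exception among the 5. Its high libraries had 46.0, 44.5 and 40.1 CPM in control cells and its low libraries 46.3, 40.5 and 54.8 CPM, which overlap. The log2 fold change was -0.08 (SE 0.12, adjusted p = 0.56). It was called higher in the high fraction of UAU cells (0.37, SE 0.12, adjusted p = 0.0084) and lower in that of isoswitch cells (-0.38, SE 0.12, adjusted p = 0.0074), the only member with opposite calls in the 4 lines. Beside these, 11 SMIM-named genes, which code for small membrane proteins, had a median of -0.87 in control cells with 8 called lower.

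Both abundant and rare members were skewed to the low fraction. In control cells the median was -1.76 for the 20 members at 10 CPM or more in total RNA, -1.39 for the 39 between 2 and 10 CPM and -2.22 for the 19 between 1 and 2 CPM. It was -1.73 for the 13 that overlap a coding gene and -1.78 for the 35 that overlap no gene. Across the 78 members in control cells, Spearman's rho of the log2 fold change with log2 total RNA level was 0.048. With the log2 length of the gene on the chromosome it was 0.093. In UAU, GAUi and isoswitch cells rho was 0.046, -0.012 and -0.091 with level, and 0.150, 0.158 and 0.180 with length. These values are over members that share the same libraries. The value moved by less than 1 between the 4 lines for 62 members, with a median range of 0.64.

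Other long RNAs had values on both sides of the members' median. The 18 SNHG-named snoRNA host genes were all called lower in the high fraction of each line, with a median of -3.12 in control cells. Of 237 antisense-named RNAs, 169 were called lower and 15 higher in control cells, with a median of -1.33. Of 3 nuclear RNAs, 2 were called lower there, and their median was -1.97.

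**Figure D3:**
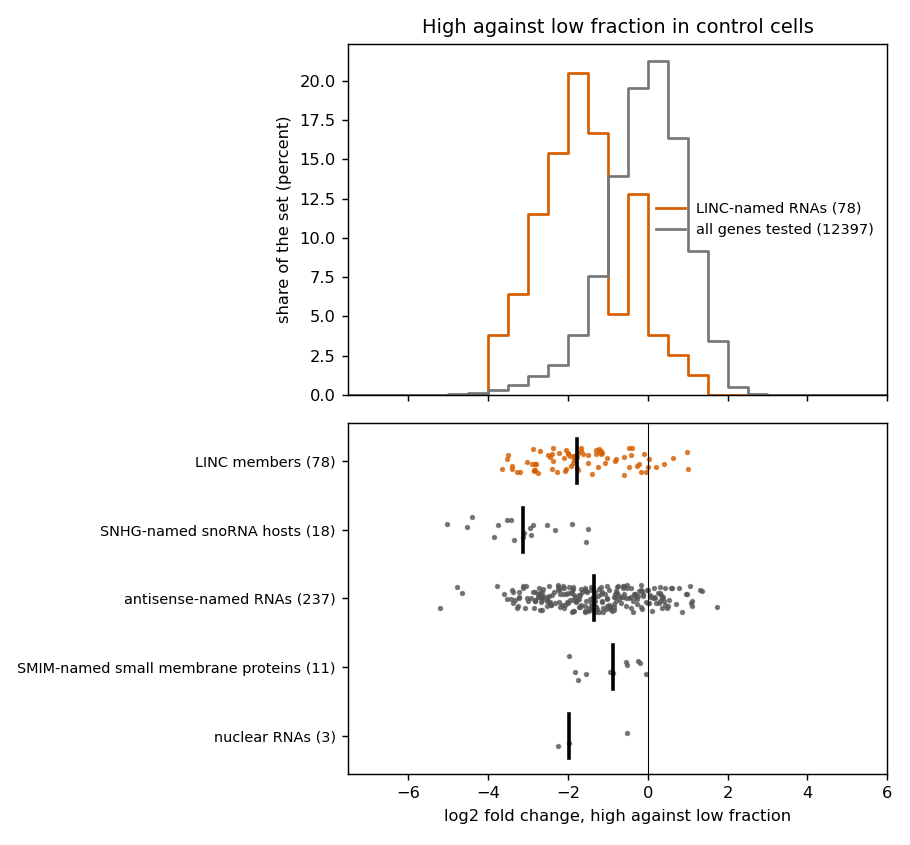
Log2 fold change of the high against the low fraction in control cells (x axis). The upper panel gives the percent of the 78 LINC-named RNAs and of the 12397 genes tested in bins of 0.5; the lower panel gives single genes of the members and of the comparison lists, with medians as bars (-1.78, -3.12, -1.33, -0.87 and -1.97 from top to bottom).

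Differences between the lines were called for a minority of the members. Of 78 members, 15 were called in at least 1 of 9 comparisons of a line with control, with 25 calls in all, and 63 in none. How many of all genes were called in at least 1 of the 9 is not given here, so these counts have no background beside them. The comparisons share the control libraries, so calls of 1 member in several of them are not independent. In total RNA, 2 members were called in UAU cells, 4 in GAUi cells and 0 in isoswitch cells, where 0.823%, 9.94% and 4.0% of all genes were. In the low fraction the counts were 0, 1 and 1, against 0.702%, 3.4% and 2.54% of all genes. Unadjusted p under 0.05 was reached by 8 members in isoswitch total RNA and 15 in the UAU low fraction, and DESeq2 called 1 in isoswitch total RNA and 0 in the UAU low fraction. The share of all genes under that unadjusted bound is not given here, so the 8 and 15 are not read as an excess. In the high fraction, 5 members were called in UAU, all higher, 5 in GAUi, 3 of them higher, and 7 in isoswitch cells, all lower, where 27.4%, 9.61% and 10.6% of all genes were called. These shares lie near or under those of all genes. By direction, 12.5% of all genes were called higher and 14.9% lower in UAU cells, 4.44% and 5.16% in GAUi cells, and 3.55% and 7.07% in isoswitch cells.

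LINC01234, studied as a growth-associated RNA of carcinomas, was called in 5 comparisons, more than any other member. In the low fraction it had 12.7, 15.7 and 16.1 CPM in GAUi cells and 17.4, 15.6 and 16.9 CPM in isoswitch cells, against 26.2, 31.1 and 21.8 CPM in control cells. All 6 libraries with CRISPRi against Ile GAU lay below the 3 control libraries. The log2 fold change was -0.82 in GAUi cells (SE 0.15, adjusted p = 0.0043) and -0.64 in isoswitch cells (SE 0.15, adjusted p = 0.025). In the high fraction it had 7.31, 6.41 and 6.88 CPM in GAUi cells and 7.61, 8.52 and 6.93 CPM in isoswitch cells, against 10.8, 10.6 and 11.3 CPM in control cells. These groups also did not overlap, with -0.59 in GAUi cells (SE 0.17, adjusted p = 0.023) and -0.52 in isoswitch cells (SE 0.17, adjusted p = 0.0397). In total RNA it had 6.46, 9.07 and 5.69 CPM in GAUi cells, against 12.8, 10.3 and 12.8 CPM in control cells (-0.75, SE 0.20, adjusted p = 0.023). Isoswitch cells were not called in total RNA (-0.47, SE 0.20, adjusted p = 0.232). UAU cells had 31.6, 26.3 and 28.4 CPM in the low and 12.3, 9.44 and 11.7 CPM in the high fraction, which overlapped with control cells. Of the 5 calls, the one in the GAUi low fraction held when any 1 library was left out. The GAUi call in total RNA was lost without control A, control C or GAUi C, and each of the other 3 was lost on leaving out any of 5 of its 6 libraries.

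MANCR was called higher in the high fraction and in total RNA of UAU cells. Its high libraries had 81.0, 80.5 and 73.8 CPM in UAU and 48.1, 51.1 and 49.6 CPM in isoswitch cells, against 59.5, 60.2 and 57.7 CPM in control cells. The 3 lines did not overlap. The log2 fold change was 0.47 in UAU cells (SE 0.09, adjusted p = 0.00021) and -0.28 in isoswitch cells (SE 0.09, adjusted p = 0.042). The UAU call held when any 1 library was left out, with adjusted p of at most 0.0018. The isoswitch call was lost in 10 of 12 alternatives, DESeq2 among them, where the highest adjusted p was 0.179. In total RNA it had 120.04, 130.2 and 129 CPM in UAU cells, against 97.2, 90.4 and 92.6 CPM in control cells (0.41, SE 0.09, adjusted p = 0.027), a call lost when any 1 of the 6 libraries was left out. In the low fraction it had 295, 282 and 262 CPM in UAU cells, against 252, 246 and 224 CPM in control cells. These libraries did not overlap, but the difference was not called (0.23, SE 0.08, adjusted p = 0.219).

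SMIM30, which overlaps the coding gene LOC107986837, was called in 3 comparisons. In the high fraction it had 39.1, 35.2 and 25.5 CPM in UAU and 11.6, 16.7 and 17.1 CPM in isoswitch cells, against 26.9, 26.3 and 21.4 CPM in control cells. The isoswitch libraries lay below all control libraries, while UAU C fell within the control range. The log2 fold change was 0.47 in UAU cells (SE 0.14, adjusted p = 0.016) and -0.76 in isoswitch cells (SE 0.16, adjusted p = 0.0022). In total RNA it had 31.5, 44.7 and 36.8 CPM in GAUi cells, against 54.5, 48.3 and 51.8 CPM in control cells (-0.45, SE 0.12, adjusted p = 0.026). Isoswitch cells were also lower, but not called, in total RNA (-0.43, adjusted p = 0.0598) and in the low fraction (-0.45, adjusted p = 0.197). The change of the high-to-low ratio of SMIM30 in isoswitch cells was -0.30 and was not called (adjusted p = 0.669). The isoswitch call in the high fraction held when any 1 library was left out. The UAU call was lost without UAU A, UAU B or control C, and the GAUi call without any of the 3 control libraries or GAUi C. MTLN, the mitoregulin gene, had 33.98, 28.7 and 25.7 CPM in UAU and 36.4, 26.2 and 21.4 CPM in GAUi high libraries, against 21.4, 22.8 and 17.2 CPM in control cells. GAUi C fell within the control range. MTLN was called higher in both, at 0.58 in UAU (SE 0.16, adjusted p = 0.0068) and 0.51 in GAUi cells (SE 0.16, adjusted p = 0.038). The UAU call was lost without UAU A (adjusted p = 0.0553), and the GAUi call without any control library, GAUi A or GAUi B.

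**Figure D4:**
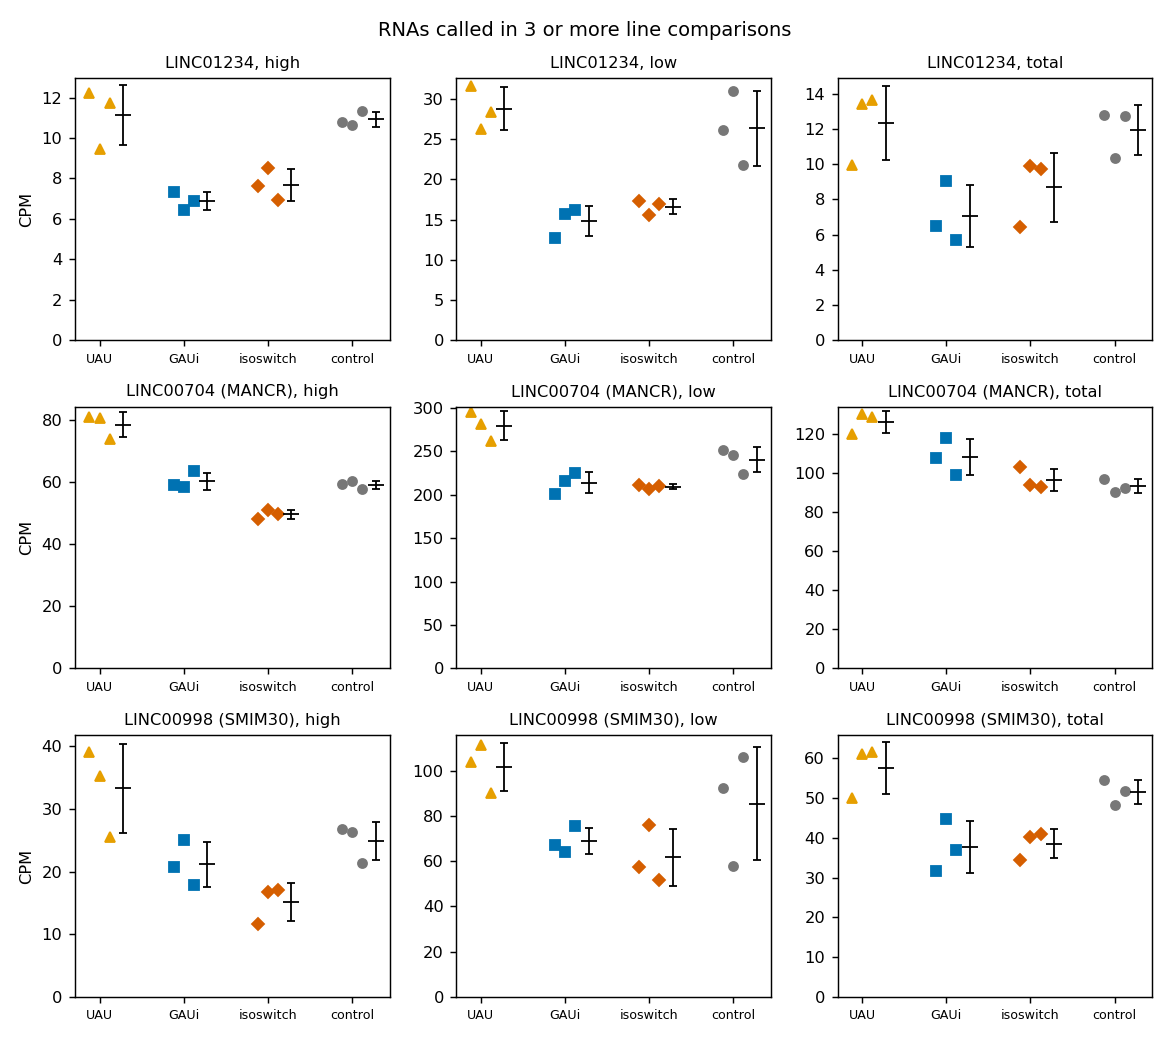
CPM of LINC01234, MANCR and SMIM30 in the high, low and total RNA libraries (columns) of UAU, GAUi, isoswitch and control cells (x axis). Points are libraries, and black bars the mean and SD of 3. LINC01234 is lower in GAUi and isoswitch than in control cells in the high and low fractions, MANCR is highest in UAU cells, and SMIM30 lies lowest in isoswitch high libraries.

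The other members called in the isoswitch high fraction were CYTOR, SNHG33, LINC00997 and LINC01003. CYTOR had 110.4, 176 and 160 CPM in isoswitch cells, against 208, 197 and 221 CPM in control cells, with no overlap (-0.52, SE 0.13, adjusted p = 0.0072). The call was lost without isoswitch A, without control C and with DESeq2, where the highest adjusted p was 0.0977. SNHG33, the snoRNA host, had 6.46, 8.67 and 7.64 CPM, against 11.3, 13.4 and 12.7 CPM in control cells (-0.73, SE 0.16, adjusted p = 0.0032). LINC00997 had 5.46, 6.24 and 6.04 CPM, against 9.58, 10.9 and 11.1 CPM in control cells (-0.85, SE 0.18, adjusted p = 0.0018). LINC01003 had 1.44, 2.43 and 1.60 CPM, against 4.23, 4.50 and 5.40 CPM in control cells (-1.37, SE 0.30, adjusted p = 0.0029). The last 3 did not overlap with control cells and held when any 1 library was left out. Without isoswitch high A, 4 members were called lower in place of 7, and without control high C also 4. The members took 0.0690% ± 0.0080 of the counts in isoswitch high libraries, against 0.0844% ± 0.0013 in control cells (SD, n = 3 each). Of the other long RNAs, 7 of 18 SNHG-named genes were called lower in the same comparison. The 19 of 237 antisense-named RNAs called lower, 8.02%, were near the 7.07% of all genes, and the members' median was -0.24, against -0.00 over all genes. The part of these in the members' values was not tested.

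In the UAU high fraction, LINC00467 and LINC01116 were called higher beside MANCR, MTLN and SMIM30. LINC00467 had 27.5, 20.4 and 16.1 CPM in UAU cells, against 15.5, 14.9 and 17.8 CPM in control cells (0.49, SE 0.16, adjusted p = 0.023). LINC01116 had 27.9, 24.1 and 16.3 CPM, against 15.2, 17.6 and 15.2 CPM in control cells (0.57, SE 0.16, adjusted p = 0.0073). In both, UAU C fell within the control range. Without UAU A only MANCR of the 5 was called, and without UAU C the count was 11.

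**Figure D5:**
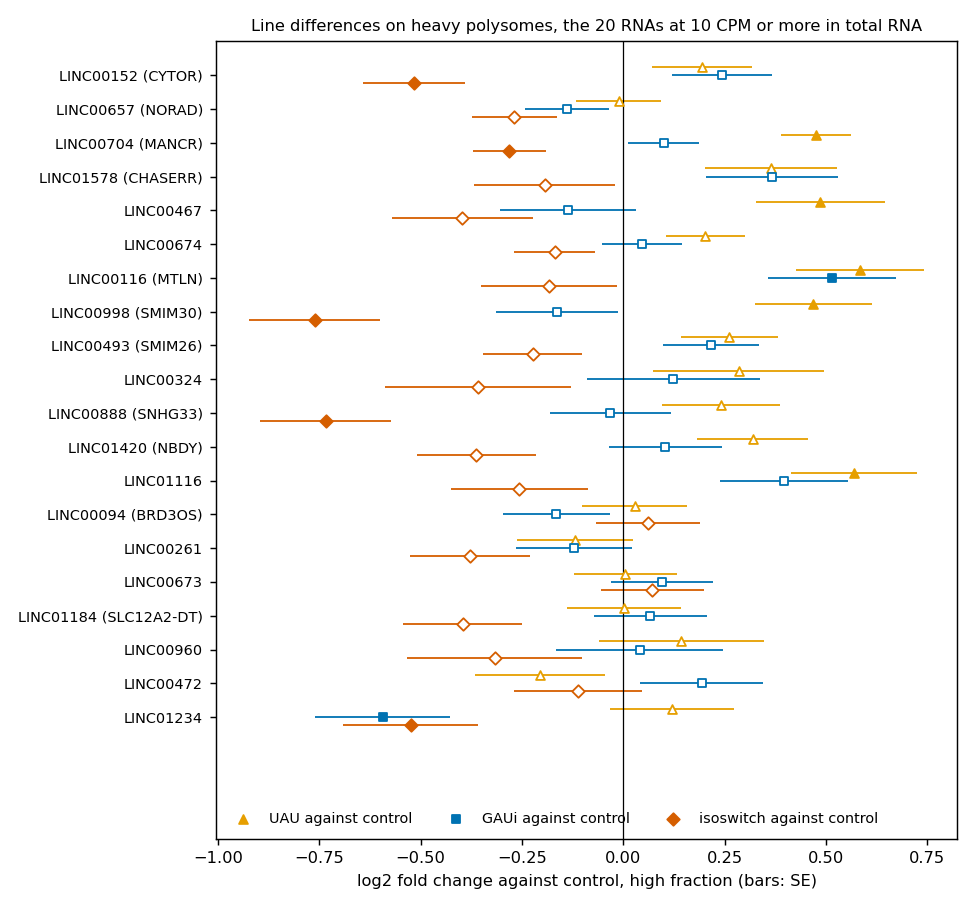
Log2 fold change against control in the high fraction (x axis, bars SE) for the 20 members at 10 CPM or more in total RNA, in UAU, GAUi and isoswitch cells. Filled symbols passed an adjusted p of 0.05. They lie right of 0 for UAU and left of 0 for isoswitch cells. In GAUi cells LINC01234 lies left of 0 and MTLN right of 0.

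The remaining GAUi calls were in members of low level or in total RNA. In the high fraction LINC00452 had 3.44, 3.34 and 2.84 CPM in GAUi cells, against 1.34, 1.91 and 1.22 CPM in control cells (1.17, SE 0.31, adjusted p = 0.017). LINC01094 had 3.73, 2.81 and 3.29 CPM, against 1.78, 1.36 and 2.09 CPM in control cells (0.99, SE 0.30, adjusted p = 0.033). LINC01089 had 2, 1 and 0 counts in GAUi libraries, against 9, 5 and 8 counts in control libraries (adjusted p = 0.024). The ratio of its summed counts per library total was 0.142, with an exact 95% interval of 0.0272 to 0.473 for counting error only. Each of these 3 calls was lost when certain single libraries were left out, and without control high A no member was called in this comparison. In total RNA, LINC00938 had 5.13, 5.78 and 6.74 CPM in GAUi cells, against 2.53, 3.40 and 3.54 CPM in control cells (0.89, SE 0.24, adjusted p = 0.023). LINC00467 had 35.6, 53.6 and 51.4 CPM in GAUi cells, against 64.9, 67.6 and 61.1 CPM in control cells (-0.46, SE 0.12, adjusted p = 0.020). Neither overlapped with control cells, and both calls were lost without control total A or control total B. Without control total A no member was called in GAUi total RNA, and without GAUi total A the count was 4 again. LINC00472 had 9.67, 7.63 and 7.87 CPM in UAU total RNA, against 11.9, 14.2 and 12.8 CPM in control cells (-0.65, SE 0.15, adjusted p = 0.04995), and the call was lost when any 1 library was left out.

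The change of the high-to-low ratio against control was tested in 1 fit of 24 libraries. It was called for 0 members in UAU, GAUi and isoswitch cells by edgeR and by DESeq2, where 6.78%, 0.21% and 0.00807% of all genes were called. DESeq2 gave an adjusted p for only 30, 12 and 14 of the 78 members. Unadjusted p under 0.05 was reached by 5, 9 and 10 members, without the share of all genes beside it, and the median change was 0.16, 0.15 and -0.16. Without control low B the counts were 2 in UAU, 1 in GAUi and 2 in isoswitch cells.

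In the high fraction, the effect of tRNAIleUAU overexpression was compared between GAUi and eGFP cells. This contrast, isoswitch minus GAUi less UAU minus control, and the comparison of isoswitch with UAU cells were both chosen with the values already known. The difference was called lower for 14 members and higher for 0, where 16.8% and 17.5% of all genes were, 34.3% in either direction, so the share called lower was near that of all genes. It was called for 0 members in total RNA and 0 in the low fraction (DESeq2 1 and 0), where 0.0242% and 0.25% of all genes were called. An unadjusted p under 0.05 was reached by 8 and 7 members, with the share of all genes not given here. CYTOR averaged 149 ± 34.1 CPM in isoswitch and 235 ± 20.03 CPM in GAUi cells, and 227 ± 41.1 CPM in UAU and 209 ± 12.01 CPM in control cells (SD, n = 3 each). MTLN averaged 18.4 ± 3.71 CPM in isoswitch and 27.99 ± 7.67 CPM in GAUi cells, and 29.5 ± 4.19 CPM in UAU and 20.5 ± 2.88 CPM in control cells. The difference was -0.95 for CYTOR (SE 0.18, adjusted p = 0.00013) and -1.28 for MTLN (SE 0.23, adjusted p = 8.2e-05). In both, UAU was above control and isoswitch below GAUi on average.

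Set against UAU cells, the isoswitch high fraction had 21 members called lower and 0 higher, where 20.5% and 19.7% of all genes were, 40.2% in either direction. The median of the members was -0.46, against -0.01 over all genes, and 10 of 18 SNHG-named genes were called lower in the same comparison. SMIM30 had 11.6, 16.7 and 17.1 CPM in isoswitch and 39.1, 35.2 and 25.5 CPM in UAU cells, without overlap (-1.23, SE 0.16, adjusted p = 6.2e-07). MANCR fell by 0.76 on the log2 scale (SE 0.09, adjusted p = 1.9e-07). Without isoswitch A, and likewise without UAU A, 15 members were called.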

How the data were processed

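The deposited files hold raw counts per gene symbol, 1 table for each of 36 libraries. Per the labels' protocols, each took 500 ng RNA into a Lexogen QuantSeq kit, which reads 3' ends, so counts were not divided by length. STAR, featureCounts, DESeq2 and hg38 appear in the submitters' processing notes. Tool versions, the annotation and the strand setting were not given in the sources used here. The labels name no molecular identifiers, so intervals cover counting error only.

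Members are all symbols of the pattern LINC plus digits at a mean of 1 CPM or more in total RNA. The members and lists were chosen with earlier results of these data known. Counts were tested with edgeR 4.0.16 (R 4.3.3, limma 3.58.1; glmQLFit and glmQLFTest, TMM, group means) on the 12397 genes at the same bound, with Benjamini-Hochberg adjustment over all of them and calls at 0.05. The bound took the place of filterByExpr, which keeps only 57 members among high libraries and could keep one through the group where it is high. As a mean over total RNA of all 4 lines, the bound could also be passed through 1 line by a gene near it. Lines were compared in fits of 12 libraries per fraction, fractions and their ratio in 1 fit of 24. SE is that of the log2 fold change. Printed CPM are counts over library totals, without the TMM factors of 0.923 to 1.06 in the fit of fractions. The fits were tested on simulated counts with known changes.

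Named with values are the 8 most abundant members, up to 8 called extremes of high against low in control cells in each direction, members with opposite calls between lines, up to 6 called members per line comparison and direction, and members with a newer symbol or a coding annotation. Replicate letters were checked for pairing: correlations of same-letter deviations ran from -0.325 to 0.189 and did not all pass 0.1. Deviations from the mean of so few libraries are tied to each other, so this check cannot show whether letters pair samples. The main fits treated the libraries as unpaired. Alternatives were DESeq2 size factors, the DESeq2 1.42.0 test, filterByExpr, no filter on low counts, a replicate block, a fit of only the compared groups, and leaving out each library. Positions and start windows come from RefSeq for GRCh38.p14.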

Additional observations from a re-analysis of the deposited data

Results flagged for a closer look

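All results below concern the high fraction. In each, the effect of tRNAIleUAU overexpression in GAUi cells (isoswitch minus GAUi) differed from that in eGFP cells (UAU minus control) by the edgeR quasi-likelihood test of the difference at an adjusted p under 0.05, a test added after the values were seen. All 14 differences were negative, on the log2 scale. They are 17.9% of the 78 members, near the 16.8% of all genes called lower, while 34.3% were called in either direction. Among members listed as non-coding they were -0.95 for LINC00152 (CYTOR), -0.86 for LINC00704 (MANCR), -0.92 for LINC01578 (CHASERR), -0.75 for LINC00467, -0.42 for LINC00674, -0.94 for LINC00888 (SNHG33), -1.22 for LINC01116, -1.03 for LINC01605 and -1.11 for LINC01000. For LINC01279, whose row is separate from that of CCDC80, it was -1.39. Among the microprotein genes they were -1.28 for LINC00116 (MTLN), -1.07 for LINC00998 (SMIM30), -0.70 for LINC00493 (SMIM26) and -0.79 for LINC01420 (NBDY). Over all 78 members the median was -0.41, against -0.01 over all genes.

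The difference held under all 18 alternatives for CYTOR, MANCR, CHASERR, SNHG33, LINC01116, MTLN, SMIM30, SMIM26 and NBDY. It was lost under 11 of them for LINC01605, 8 for LINC01279, 4 for LINC00674, 3 for LINC00467 and 1 for LINC01000. Without UAU high A the count was 10, without isoswitch high A 10 and without GAUi high A 9. In this contrast 10 of 18 SNHG-named genes and 9 of 11 SMIM-named genes were called lower and 0 of either list higher. Of 237 antisense-named RNAs, 36 were called lower, or 15.2%, which is under the share of all genes, and 12 higher. The part of these in the members' values was not tested.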

How the results depend on the processing

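Counts of called members in high against low fraction stayed within 1.5 times their value under all alternatives, in all 4 lines. No result reversed. Counts that moved by more were small. For UAU against control in total RNA (2 called), no filter on low counts gave 4, the replicate block 1 and the compared groups alone 7. For GAUi in total RNA (4), the compared groups alone gave 0. For isoswitch in total RNA (0), DESeq2, no filter and the replicate block gave 1 each and the compared groups alone 7. In the low fraction, no filter gave 2 in GAUi (1) and 2 in isoswitch cells (1), where the replicate block and the compared groups alone gave 0. In the high fraction, DESeq2 gave 2 in GAUi (5) and 4 in isoswitch cells (7); it left out members of low count, with an adjusted p for 35 and 47 of 78. For the change of the high-to-low ratio (0), DESeq2 size factors gave 1 in UAU and no filter 1 in isoswitch cells. For the difference in the effect of tRNAIleUAU overexpression in total RNA (0), DESeq2 and no filter gave 1 each. The cause of these moves was not tested.

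Leaving out 1 library gave 64 to 67 in UAU (69), 61 to 64 in GAUi (66), 63 to 67 in isoswitch (67) and 62 to 65 in control cells (66) for high against low. Against control it gave, in total RNA, 0 to 0 in UAU, 0 to 6 in GAUi and 0 to 0 in isoswitch cells; in the low fraction, 0 to 1, 1 to 2 and 0 to 2; and in the high fraction, 1 to 11, 0 to 3 and 4 to 8. The ratio change gave 0 to 2 in UAU, 0 to 1 in GAUi and 0 to 2 in isoswitch cells. The overexpression difference gave 0 to 1 in total RNA, 0 to 0 in the low and 9 to 15 in the high fraction, and isoswitch against UAU in the high fraction 15 to 23. The alternatives for the 2 contrasts added later were also chosen after seeing the data.

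Of the single calls, the replicate block, with letters whose pairing is not known, kept 64 and lost 5. DESeq2 kept 56 and lost 10, and leaving out 1 library kept 379 and lost 119 of 498. Members near 1 CPM had few counts in high libraries, and the size of line difference that could be detected there was not measured.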
